A study of Mus musculus with 10 samples.

Results

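The collagen chain genes of the mouse cochlea were compared between mice given nicotinamide riboside (NR), a precursor of the coenzyme NAD+, and mice that were not. A gene was a member if its symbol was Col, a number, the letter a and a number, and if it was protein coding. The rule took 44 of the 54532 genes in the files, and 42 of them were among the 18329 genes that passed the filter on low counts. The remaining members, Col6a4 with 48 reads and Col10a1 with 68 reads over all 10 libraries, were too rare to be tested.

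RNA came from the whole cochlea at 12 months of age. The 5 NR-treated mice took NR in their drinking water at 7 mg/ml (24 mM) from the age of 2 months, for 10 months, and the 5 non-treated mice took regular water. Mice of both groups were mtKeima, a strain carrying a mitochondrial fluorescent protein that responds to pH, so neither group was free of the transgene. The question put to the tissue was how prolonged NR supplementation changes cochlear transcription in the aging animal. Each library is 1 replicate of its group, and values below are in the order of replicates 1 to 5.

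A collagen is built from chains that wind into a triple helix in the endoplasmic reticulum after their prolines and lysines are hydroxylated. Fibrillar collagens (types I, II, III, V, XI, XXIV and XXVII) are then trimmed by proteases and crosslinked into fibrils, type IV forms the sheet of basement membranes, type VI forms beaded filaments, and smaller types sit on fibrils, span membranes or anchor epithelia. In the cochlea, type I belongs to the bony capsule and ligament, types II, IX and XI give the tectorial membrane its fibres, and type IV lies under the epithelia, around vessels of the stria vascularis and in the basilar membrane. Inherited defects of Col11a2, Col2a1, Col9a1, Col4a3, Col4a4 and Col4a5 impair hearing.

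Levels are in CPM, the reads of a gene relative to all reads counted on genes in that library, after library sizes were corrected by TMM, the trimmed mean of M-values. CPM divided by gene length in kilobases (CPM per kb) was used where genes were compared with each other. A gene was called higher or lower if edgeR's quasi-likelihood test gave an unadjusted p of 0.05 or less, the threshold that the study's methods state, and the Benjamini-Hochberg adjusted p is given beside it.

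The libraries held 17060379 to 22931581 counted reads in the NR-treated group and 20004667 to 24419230 in the non-treated group, and no pair held the same values. Non-treated mice 3 and 4 stood apart from their group, with 2870 and 3027 CPM summed over 8 markers of the tectorial membrane and supporting cells against 1578 to 1632 CPM in the other 3 mice, so the counts of called collagen and pathway genes are also given without this pair. The labels describe female mice, whereas the study's methods describe male mice. The data go against the labels in all 10 libraries: Xist had 2 to 8 reads, and the Y-linked Ddx3y stood at 64.5 to 85.0 CPM. Markers of the cochlea were detected, with 8 of 8 tectorial and supporting cell markers, 7 of 7 hair cell markers and 7 of 7 strial markers passing the filter. Passing does not require a high level in every library: the hair cell marker Slc26a5 stood at 0.046 CPM in non-treated mouse 5.

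Sequences upstream of 5 members are printed because the groups of Col16a1 and Col8a1 did not overlap, Col11a2 was the most abundant collagen per kb, Col3a1 shows a contrasting start without a GC box, and Col4a4 and Col4a3 share 1 interval from which they are transcribed in opposite directions. They are RefSeq bases of GRCm38.p6, written 5′ to 3′ on the strand of the gene, and capitals mark matches on either strand to CCAAT, to GGGCGG (the GC box) and to TATAA. The windows are chr17:34038888-34039137 (plus strand) for Col11a2, chr1:45311288-45311537 (plus) for Col3a1, chr4:130047590-130047839 (plus) for Col16a1, chr16:57754738-57754987 (minus) for Col8a1 and chr1:82586850-82586920 (read on the minus strand, toward Col4a4) for the interval. The Col11a2 window ends before the RefSeq start and lies 299 bases upstream of the gene start in the files, while the other windows end at that start. The Col16a1 window also holds part of an exon of Gm12963.
Col11a2: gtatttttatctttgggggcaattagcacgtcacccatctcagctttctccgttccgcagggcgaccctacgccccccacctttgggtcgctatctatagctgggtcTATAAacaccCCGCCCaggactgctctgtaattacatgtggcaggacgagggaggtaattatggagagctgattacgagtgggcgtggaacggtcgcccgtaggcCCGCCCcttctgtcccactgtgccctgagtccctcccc
Col3a1: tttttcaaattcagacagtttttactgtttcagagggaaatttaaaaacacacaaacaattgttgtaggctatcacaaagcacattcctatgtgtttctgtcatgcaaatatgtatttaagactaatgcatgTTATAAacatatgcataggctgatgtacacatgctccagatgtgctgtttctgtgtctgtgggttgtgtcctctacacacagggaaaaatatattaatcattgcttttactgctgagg
Col16a1: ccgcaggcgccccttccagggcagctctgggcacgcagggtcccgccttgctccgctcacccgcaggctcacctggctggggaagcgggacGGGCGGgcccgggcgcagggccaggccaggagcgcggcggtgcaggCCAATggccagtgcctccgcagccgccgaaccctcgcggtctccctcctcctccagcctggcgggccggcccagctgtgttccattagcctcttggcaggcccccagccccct
Col8a1: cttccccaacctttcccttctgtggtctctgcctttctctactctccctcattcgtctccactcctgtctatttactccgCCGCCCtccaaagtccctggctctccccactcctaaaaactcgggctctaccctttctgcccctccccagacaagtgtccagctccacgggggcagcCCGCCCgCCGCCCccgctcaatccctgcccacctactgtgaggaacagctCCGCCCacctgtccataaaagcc
Col4a4 to Col4a3: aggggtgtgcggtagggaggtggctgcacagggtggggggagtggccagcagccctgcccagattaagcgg
The promoter table held 35 of the 44 members. Over the 250 bases before the RefSeq start, 21 of these 35 held a GC box, as did 32.9% of all 27025 promoters of the table. CCAAT was found in 12 of 35 and in 34.5% of all, and TATAA in 7 of 35 and in 23.5% of all. In Col3a1 the forward and reverse matches to TATAA overlap, and in Col11a2 a TATAA and a GC box lie within the same short stretch. The interval of Col4a4 and Col4a3, of 71 bases, holds none of the 3 motifs. A match describes the letters and does not show that a factor binds.

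Type I collagen was the class with the largest difference between the groups, with a median log2 fold change of 1.42 over its 2 genes. Of the 42 tested members, 8 were called higher in NR-treated mice (19.0%, where 4.83% of all tested genes were called higher) and 3 were called lower (7.14%, against 4.88% of all tested genes). The members called higher were Col1a1, Col1a2, Col3a1, Col5a2, Col6a1, Col6a2, Col16a1 and Col22a1, and those called lower were Col4a3, Col4a4 and Col8a1. At an adjusted p of 0.05, edgeR called 0 members and 0% of all genes, and the smallest adjusted p of a member was 0.408, while the Wald test of DESeq2 called 1 member, Col1a2, at an adjusted p of 0.0494, and 0.308% of all genes. The median log2 fold change over the 42 members was -0.01, the same as over all tested genes, and 20 members had a positive and 22 a negative value. In bulk RNA, fewer cells of a type cannot be told apart from less RNA in each cell. Without non-treated mice 3 and 4, 3 members were called higher (7.14%, against 4.11% of all genes tested in that setting) and 1 lower (2.38%, against 5.58%), namely Col1a1, Col1a2, Col16a1 and Col8a1. Most of the excess over all genes was not seen in that fit, which also has fewer mice to test with. Leaving out 1 mouse at a time gave 4 to 14 members called higher, with 4 without NR-treated mouse 1 or non-treated mouse 5. The loss was thus not particular to mice 3 and 4.

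**Figure D1:**
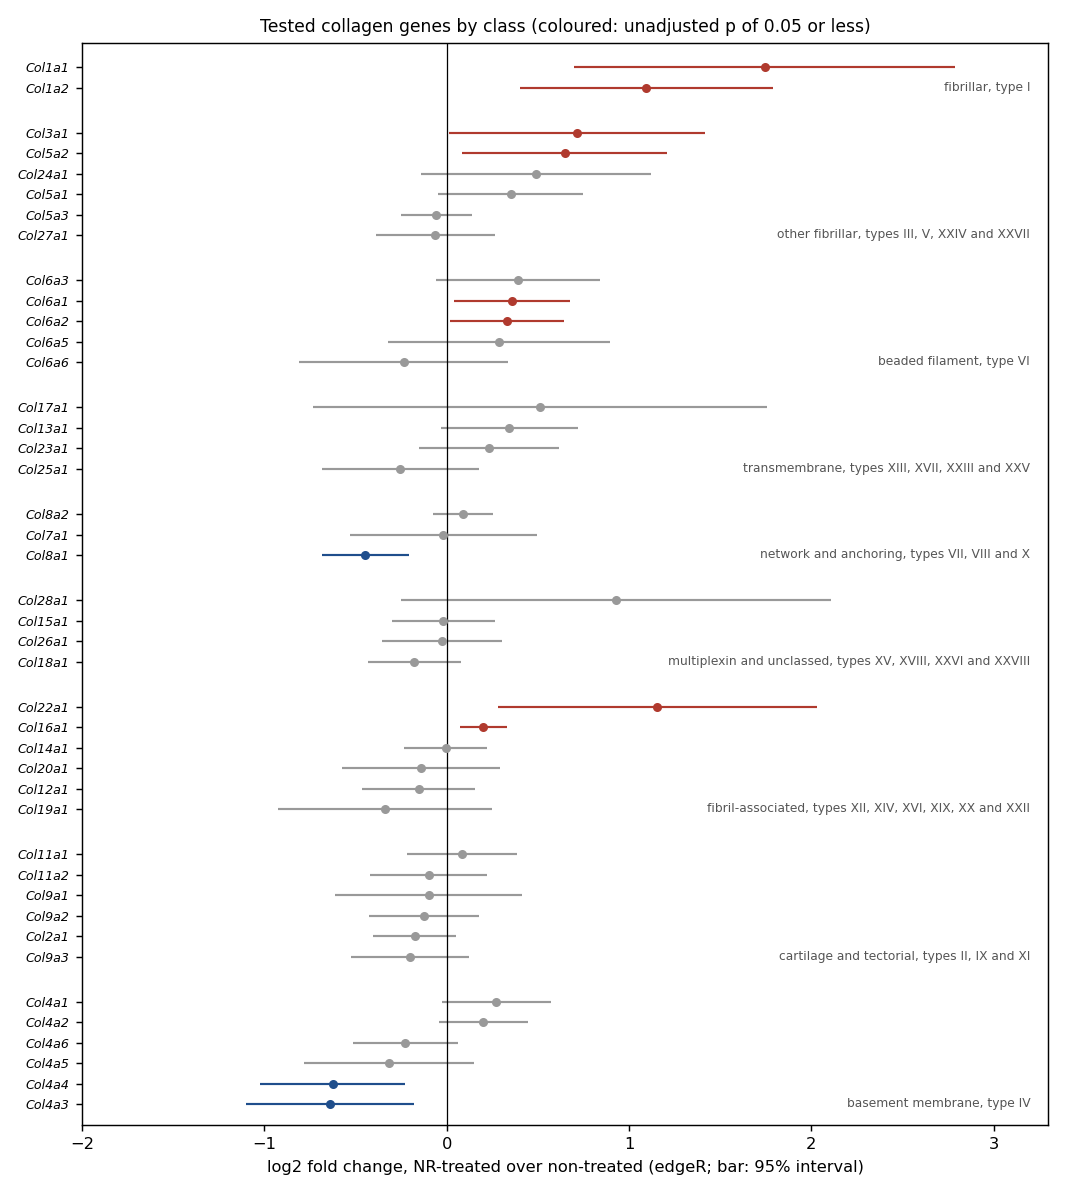
The log2 fold change of NR-treated over non-treated mice (x axis) is plotted for each of the 42 tested collagen genes (y axis), grouped by class, with bars for the 95% interval from edgeR. Red and blue points are the 8 members called higher and the 3 called lower at an unadjusted p of 0.05, and Col1a1 (1.74), Col22a1 (1.16) and Col1a2 (1.09) lie farthest to the right among them.

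Col1a1 (chr11:94936224-94953042 of mm10, plus strand) encodes the alpha1 chain of type I collagen, the main protein of bone and tendon. Its level was 1532, 297, 488, 794 and 981 CPM in the NR-treated mice and 471, 273, 210, 102 and 167 CPM in the non-treated mice. NR-treated mouse 1 was the highest of all 10, and NR-treated mouse 2 was below non-treated mouse 1, so the groups overlapped. The means were 818.5 ± 479 and 244 ± 141 CPM (SD, n = 5 each), with a log2 fold change of 1.74 ± 0.48 (SE) in edgeR (adjusted p = 0.408). Col1a2 (chr6:4504814-4541544, plus strand), the alpha2 chain that joins Col1a1 in the same helix, stood at 1391, 363, 616, 831 and 1031 CPM with NR and at 558, 444, 343, 288 and 349 CPM without. Here too NR-treated mouse 1 was at the top, NR-treated mouse 2 was within the range of the non-treated mice and the other 4 NR-treated mice were above it. Col1a2 had a log2 fold change of 1.09 ± 0.32 (edgeR adjusted p = 0.420). Both genes stayed called in all 17 alternative settings, with log2 fold changes of 1.40 to 2.12 for Col1a1 and 0.85 to 1.30 for Col1a2 when each mouse was left out in turn.

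Chains of 1 helix can be compared within a mouse, where library size cancels. These ratios were chosen after the values were seen and are given as descriptions without a test. Reads of Col1a1 over reads of Col1a2 gave 1.10, 0.819, 0.793, 0.956 and 0.952 in the NR-treated mice and 0.843, 0.614, 0.613, 0.354 and 0.479 in the non-treated mice. Non-treated mouse 1 lay within the range of the NR-treated group and the other 4 lay below it.

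**Figure D2:**
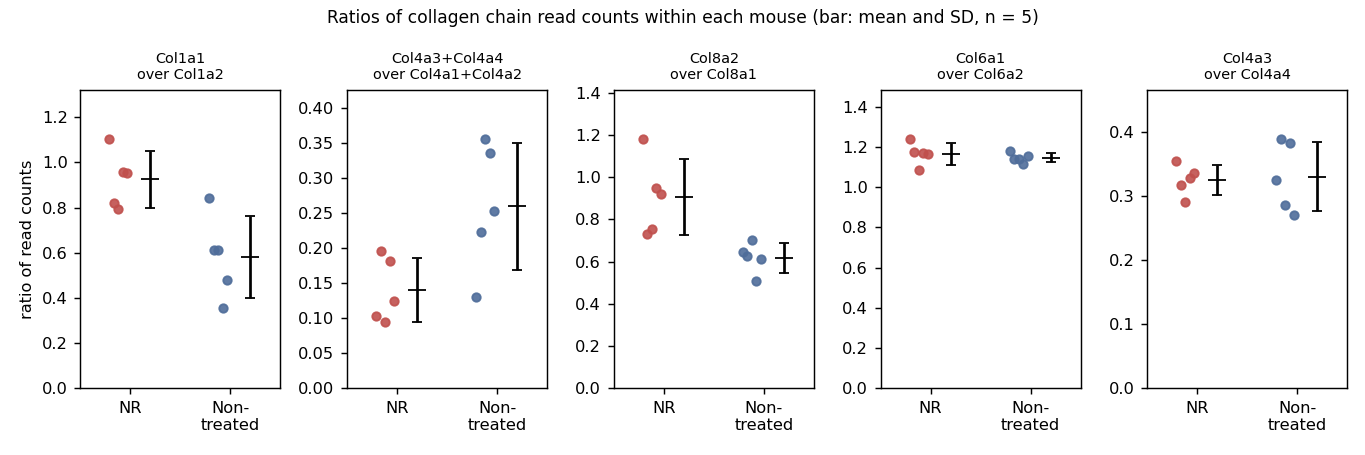
Ratios of read counts between collagen chains within each mouse (y axis, no unit) are shown for NR-treated and non-treated mice, with the mean and SD of 5 mice as bars. Col8a2 over Col8a1 separates the groups (0.732 to 1.18 against 0.506 to 0.701), while Col6a1 over Col6a2 stays between 1.08 and 1.24 in all 10 mice.

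The type I chains carried a larger part of collagen reads in NR-treated mice. They made up 51.3, 18.6, 29.3, 38.2 and 43.3% of the reads of the 44 members in the NR-treated mice and 29.8, 21.9, 15.1, 11.8 and 16.8% in the non-treated mice, without a test. Types II, IX and XI made up 30.1% ± 9.21 and 40.7% ± 6.39 (SD, n = 5 each). These shares sum to a whole in each mouse, so a class can lose share without losing reads. Over the whole library, the members took 0.355 to 0.578% of counted reads with NR (median 0.428%) and 0.306 to 0.370% without (median 0.327%).

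**Figure D3:**
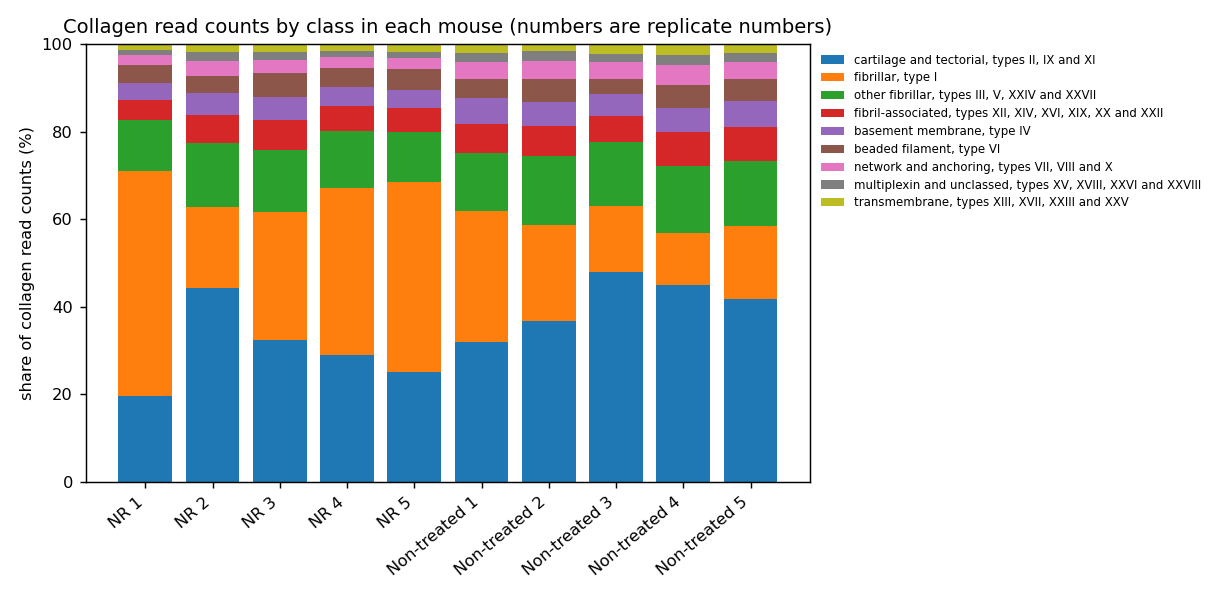
The share of collagen read counts (y axis, %) taken by each class is stacked for each of the 10 mice (x axis). Type I reaches 51.3% in NR-treated mouse 1 and 11.8% in non-treated mouse 4. NR-treated mice 2 and 3, at 18.6% and 29.3%, lie within the range of the non-treated mice, whose highest value is 29.8% in mouse 1.

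Of the other fibrillar genes, Col3a1 and Col5a2 were called higher and Col5a1, Col5a3, Col24a1 and Col27a1 were not. The median of the 6 log2 fold changes was 0.42. Col3a1 (chr1:45311538-45349706, plus strand), a fibrillar chain of soft connective tissue and vessel walls, stood at 204, 46.4, 108, 102 and 90.1 CPM with NR and at 74.5, 79.1, 81.3, 49.4 and 51.7 CPM without, a log2 fold change of 0.71 ± 0.32 (edgeR adjusted p = 0.509). NR-treated mouse 1 was far above the rest, mouse 2 of the same group was the lowest of all 10, and without mouse 1 the log2 fold change was 0.37 and the call was lost. The call of Col3a1 did not hang on that mouse alone. It held in 4 of the 10 fits that left out 1 mouse and ended in 8 of 17 alternatives. Col5a2 (chr1:45374321-45503282, minus strand), a type V chain that sets the width of type I fibrils, stood at 89.8, 28.5, 48.4, 52.6 and 63.6 CPM with NR and at 47.8, 35.7, 36.9, 27.6 and 32.4 CPM without. All NR-treated mice but mouse 2 were above the non-treated range. Its log2 fold change was 0.65 ± 0.26 (edgeR adjusted p = 0.476), and without NR-treated mouse 1 it was 0.43 and no longer called. Col5a2 was called in 6 of the 10 fits that left out 1 mouse. Its partner chain Col5a1 had 0.35 (95% interval -0.05 to 0.75), and Col24a1, a fibrillar chain of bone, had 0.49 (-0.14 to 1.12). Col27a1, a cartilage fibril chain and the most abundant of this class per kb, had 264 ± 47.7 and 275 ± 50.8 CPM, a log2 fold change of -0.06 (-0.39 to 0.26), and Col5a3 had -0.06 (-0.25 to 0.14).

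No member of types II, IX and XI passed the test. Col11a2 (chr17:34039437-34066685, plus strand), a fibrillar chain of cartilage and of the tectorial membrane, had 112 CPM per kb over all mice, followed by Col1a1 with 81.0, Col9a2 with 79.7, Col1a2 with 50.0 and Col9a3 with 43.6 CPM per kb. The length used for Col1a2 includes transcripts that keep introns, which lowers its value on this scale. Col11a2, Col1a1, Col9a2 and Col9a3 also have several annotated transcripts each, so the values of these genes can be lowered too. Col11a2 stood at 644, 940, 716, 722 and 670 CPM with NR and at 615, 699, 1024, 859 and 759 CPM without. NR-treated mouse 2 was above the other 4 of its group, and the groups overlapped over most of their range. The log2 fold change was -0.10 (95% interval -0.42 to 0.22). Col2a1, the chain of the cartilage fibril, had 56.7 ± 6.70 and 64.0 ± 8.09 CPM (SD, n = 5 each) and a log2 fold change of -0.18 (-0.40 to 0.05). The chains of type IX, which sits on type II fibrils, had -0.10 for Col9a1, -0.12 for Col9a2 and -0.20 for Col9a3. Col9a3 shares 6.07% of its exon bases with Tcfl5 on the other strand, whose reads the unstranded counting cannot separate. Col11a1 had 0.08 (-0.22 to 0.39). The median of the class was -0.11 over all 10 mice and 0.11 without non-treated mice 3 and 4. It was 0.026 without non-treated mouse 3 alone and -0.087 without non-treated mouse 4 alone, so its sign depended on mouse 3.

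In type IV, 2 of the 6 chains were called, both lower, and the class median was -0.27. Col4a1 and Col4a2, the chains of basement membranes in general, were not called (log2 fold change 0.27, 95% interval -0.03 to 0.57, and 0.20, -0.04 to 0.44). Col4a3 and Col4a4, which with Col4a5 form a network found in few basement membranes, were the called pair. Col4a4 (chr1:82448423-82586849, minus strand) stood at 12.7, 17.6, 11.2, 17.6 and 13.6 CPM with NR and at 14.9, 20.7, 28.2, 25.2 and 23.1 CPM without. Non-treated mouse 1 lay within the NR-treated range and the other 4 lay above it. In log2 terms the change was -0.63 ± 0.18 (edgeR adjusted p = 0.420). Col4a3 (chr1:82586921-82722059, plus strand), which starts at the other end of the printed interval, stood at 4.53, 5.59, 3.25, 5.76 and 4.57 CPM with NR and at 4.87, 8.04, 8.09, 9.66 and 6.27 CPM without. As for Col4a4, non-treated mouse 1 was the only one of its group within the NR-treated range. Its log2 fold change was -0.64 ± 0.21 (edgeR adjusted p = 0.436), and 5.65% of its exon bases lie opposite the transcript C430014B12Rik.

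The ratio of Col4a3 to Col4a4 reads was 0.326 ± 0.0242 with NR and 0.331 ± 0.0542 without, a difference smaller than the spread of either group. Their sum over that of Col4a1 and Col4a2 was 0.104, 0.196, 0.0947, 0.182 and 0.124 with NR and 0.131, 0.224, 0.355, 0.335 and 0.253 without. Non-treated mice 3 and 4 had the highest values, and non-treated mouse 1 was again inside the NR-treated range. Leaving out 1 mouse at a time kept both calls, and leaving out non-treated mice 3 and 4 together ended them. Col4a5 had a log2 fold change of -0.32 (95% interval -0.78 to 0.15) and Col4a6 of -0.23 (-0.52 to 0.06), and neither was called. Of 7 strial markers 4 were called lower as well, where 4.88% of all tested genes were. Sums over the 7 were 484 to 739 CPM with NR and 638 to 1340 CPM without. The part of these markers in the type IV results was not tested.

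Col8a1 (chr16:57624258-57754737, minus strand), a short chain that forms lattices under endothelia, was the member with the smallest p in edgeR. It stood at 47.3, 68.5, 58.6, 51.7 and 52.8 CPM with NR and at 70.7, 70.3, 76.0, 92.7 and 70.3 CPM without. Every NR-treated mouse was below every non-treated mouse, which held for 1 member and for 0.878% of all tested genes. The log2 fold change was -0.45 ± 0.11 (edgeR adjusted p = 0.408), and it was called in all 17 alternatives, at -0.52 to -0.36 with each mouse left out. Its partner Col8a2 had 49.6 ± 4.10 and 46.6 ± 4.02 CPM and a log2 fold change of 0.09 (95% interval -0.08 to 0.26). The ratio of Col8a2 to Col8a1 reads was 1.18, 0.732, 0.756, 0.947 and 0.922 with NR and 0.646, 0.627, 0.701, 0.506 and 0.610 without, and the groups did not overlap. Col7a1, the anchoring fibril of epithelia, had -0.02 (-0.53 to 0.50).

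Among fibril-associated collagens, Col16a1 and Col22a1 were called higher and the other 4 tested genes were not. Col16a1 (chr4:130047840-130099283, plus strand), which lies on fibrils of several tissues, stood at 141, 144, 157, 142 and 135.5 CPM with NR and at 113, 121, 123, 133 and 135.1 CPM without. All NR-treated mice were above all non-treated mice, by a narrow gap between NR-treated mouse 5 and non-treated mouse 5, and 0.769% of all tested genes were apart in this direction. Col16a1 had a log2 fold change of 0.20 ± 0.06 (edgeR adjusted p = 0.423), small in size but called in all 17 alternatives. Col22a1 (chr15:71795795-72034227, minus strand), a collagen of tissue junctions such as that of muscle and tendon, stood at 18.2, 5.28, 7.49, 9.08 and 15.1 CPM with NR and at 9.38, 5.21, 3.84, 2.73 and 3.58 CPM without. Within each group the mice ranked in the same order as for Col1a1, with NR-treated mouse 1 at the top of its group and mouse 2 at the bottom. Col22a1 had a log2 fold change of 1.16 ± 0.40 (edgeR adjusted p = 0.447), and the call ended without non-treated mice 3 and 4. Col12a1 and Col14a1, which bind type I fibrils, had -0.15 (95% interval -0.46 to 0.16) and -0.01 (-0.23 to 0.22), and the less abundant Col20a1 and Col19a1 had -0.14 and -0.34.

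**Figure D4:**
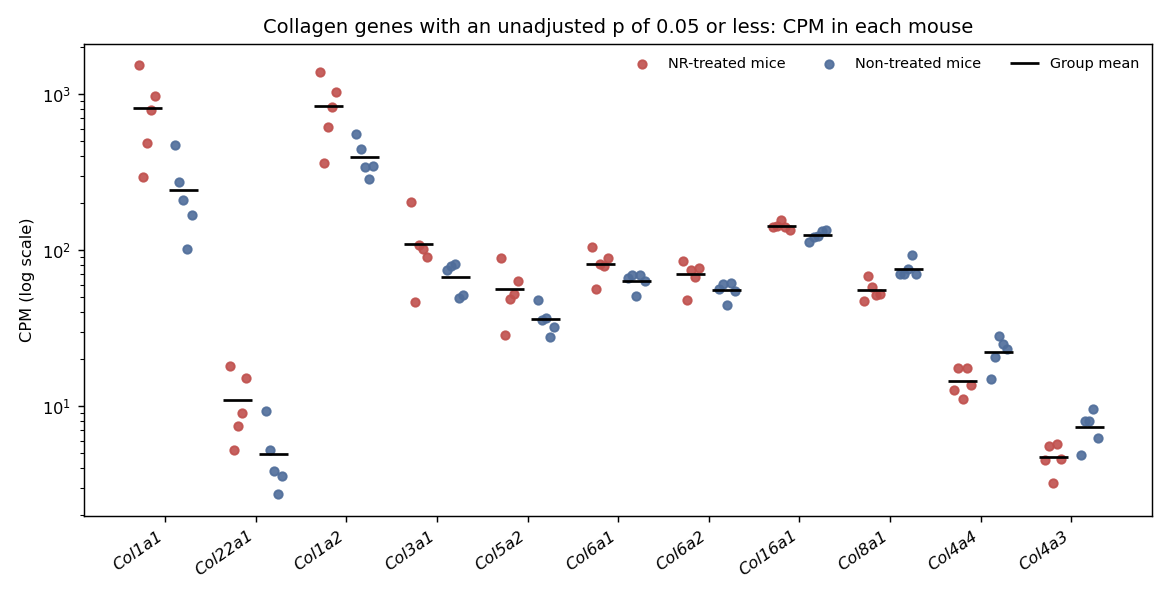
CPM (y axis, log scale) in each NR-treated (red) and non-treated (blue) mouse are plotted for the 11 called members, with a line at each group mean. Col16a1 and Col8a1 are the members whose groups do not overlap, and for Col1a1, Col1a2, Col22a1, Col3a1, Col5a2, Col6a1 and Col6a2 the highest and lowest NR-treated points are mice 1 and 2.

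Of type VI, Col6a1 and Col6a2 were called higher and the other 3 tested chains were not, with a class median of 0.33. Col6a1 (chr10:76708792-76726168, minus strand) stood at 105, 56.1, 81.3, 78.8 and 89.1 CPM with NR and at 66.9, 69.3, 51.3, 69.0 and 63.7 CPM without, a log2 fold change of 0.36 ± 0.15 (edgeR adjusted p = 0.476). Col6a2 (chr10:76595762-76623630, minus strand), its neighbour on the chromosome and partner in the helix, stood at 84.8, 47.7, 75.0, 67.4 and 76.6 CPM with NR and at 56.7, 60.8, 44.9, 61.7 and 55.2 CPM without, with a log2 fold change of 0.33 ± 0.14 (edgeR adjusted p = 0.494). In both, 4 NR-treated mice were above every non-treated mouse and NR-treated mouse 2 was not. Without NR-treated mouse 1 the log2 fold changes were 0.26 and 0.26 and neither was called. Over the 10 fits that left out 1 mouse, Col6a1 was called in 6 and Col6a2 in 4. The call ended in 6 of 17 alternatives for Col6a1 and in 8 of 17 for Col6a2. The ratio of Col6a1 to Col6a2 reads was 1.17 ± 0.0547 with NR and 1.15 ± 0.0224 without. Col6a3, the large alpha3 chain, had 0.39 (95% interval -0.06 to 0.84), and Col6a5 and Col6a6 had 0.29 and -0.24.

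None of the 8 transmembrane, multiplexin and unclassed members was called. Col13a1, a membrane collagen of cell adhesions, had 0.34 (95% interval -0.03 to 0.72), Col23a1 had 0.23 (-0.15 to 0.62) and Col25a1 had -0.25 (-0.68 to 0.18). Col18a1, which carries the endostatin fragment in vessel basement membranes, had -0.18 (-0.43 to 0.08), Col15a1 had -0.02 (-0.30 to 0.26) and Col26a1 had -0.03 (-0.35 to 0.30). Col28a1 and Col17a1 averaged 0.538 to 1.35 CPM per group, and their intervals were wide (-0.25 to 2.11 and -0.74 to 1.76).

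The proteins that make, cut and bind collagens were taken as 6 lists of 82 tested genes, of which 10 were called higher (12.2%, where 4.83% of all tested genes were) and 1 lower (1.22%, against 4.88%), with edgeR adjusted p between 0.423 and 0.512. Of 20 enzymes and chaperones that act in the endoplasmic reticulum, P4ha2, a prolyl hydroxylase subunit, and Crtap, part of the prolyl 3-hydroxylase complex, were called higher (log2 fold change 0.35 ± 0.14 and 0.22 ± 0.10, SE). The median of this list was 0.01. The collagen chaperone Serpinh1 had 0.14 (95% interval -0.17 to 0.44) and P4hb, the most abundant of the list per kb, -0.01 (-0.22 to 0.20). Of 14 genes for procollagen cleavage and crosslinking, Bmp1, the protease that removes the carboxyl end of fibrillar procollagens, was called higher (0.29 ± 0.11). Its enhancer Pcolce, the most abundant of that list, had 0.24 (-0.07 to 0.56), and the crosslinking enzyme Lox had -0.34 (-0.71 to 0.03).

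Of 14 genes for collagen degradation, Ctsk, Mmp13 and Mmp9 were called higher and none lower, with a list median of 0.21. Ctsk, the cathepsin with which osteoclasts dissolve bone collagen, stood at 128, 50.1, 77.4, 87.4 and 117 CPM with NR and at 77.1, 54.1, 32.3, 31.2 and 44.0 CPM without, a log2 fold change of 0.94 ± 0.29 (edgeR adjusted p = 0.423). Mmp13, a collagenase of cartilage and bone, stood at 94.6, 27.8, 52.8, 68.3 and 73.7 CPM with NR and at 49.8, 39.6, 22.6, 18.4 and 28.4 CPM without, a log2 fold change of 1.00 ± 0.33 (edgeR adjusted p = 0.436). As in Col1a1, NR-treated mouse 1 was the highest and mouse 2 the lowest of the NR-treated group in both genes, and non-treated mouse 1 was the highest of the other group. Mmp9, a gelatinase, had 0.86 ± 0.35. Mmp3 had a larger value, 1.57, that did not pass the test (95% interval -0.22 to 3.35). The inhibitor Timp2, the most abundant of the list, had -0.02 (95% interval -0.23 to 0.19).

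Of 10 receptors, Ddr2, a kinase that fibrillar collagens activate, was called lower (log2 fold change -0.25 ± 0.11), a call that ended in 10 of 17 alternatives, and Itgb1, the integrin chain most collagen receptors share, had 0.01 (95% interval -0.13 to 0.16). Of 15 basement membrane partners, Lama3, a laminin chain of epithelia, was called higher in every alternative (0.64 ± 0.19), from 4.93 ± 0.789 to 7.69 ± 1.98 CPM. Lamb2, the most abundant, had -0.06 (-0.29 to 0.17). Of 9 proteoglycans that bind fibrils, Aspn, Ogn and Fmod were called higher (0.85 ± 0.33, 0.23 ± 0.10 and 0.33 ± 0.15). Decorin (Dcn), the most abundant of these, had -0.15 (-0.37 to 0.08). Without non-treated mice 3 and 4, Ctsk, Mmp13, Mmp9, Aspn, Ogn, Crtap, P4ha2 and Ddr2 were no longer called, while Bmp1, Lama3 and Fmod still were. The counts were 7 higher, which include genes not called in all mice, and 0 lower. Of all genes tested in that setting, 4.11% were called higher and 5.58% lower. Over the 10 fits that left out 1 mouse, Fmod lost its call in 8 and Ogn and Mmp9 in 5 each.

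**Figure D5:**
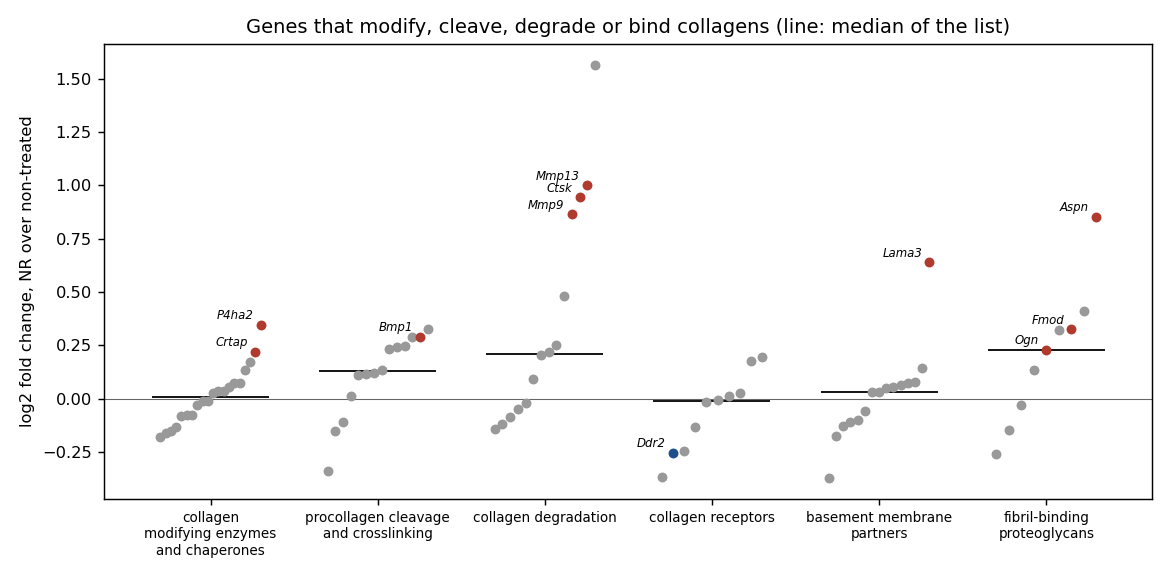
The log2 fold change of NR-treated over non-treated mice (y axis) is shown for each tested gene of 6 collagen pathway lists (x axis), with a line at each list median and with the 11 called genes named in red (higher) or blue (lower). The list medians lie between -0.01 and 0.23, and Mmp13, Ctsk, Mmp9 and Aspn lie at 0.85 to 1.00.

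Markers of other tissues were read beside these results. Of 10 bone markers, 0 were called in edgeR at an unadjusted p of 0.05, with a median log2 fold change of 0.08. Their summed level was 503, 241, 275, 343 and 456 CPM with NR and 407, 393, 320, 247 and 313 CPM without, so the groups overlapped over most of the range, and within the NR-treated group mouse 1 was the highest and mouse 2 the lowest, as for Col1a1. Osteocalcin (Bglap) had 0.80 (95% interval -0.15 to 1.76). Of all tested genes, 4.83% were called higher and 4.88% lower. Of 8 tested cartilage markers 4 were called lower, with sums of 294 to 384 CPM with NR and 342 to 525 CPM without. All 8 tectorial and supporting cell markers were called lower, with sums of 1263 to 1831 CPM with NR. Without NR, mice 3 and 4 had 2870 and 3027 CPM, and the other non-treated mice, at 1578 to 1632 CPM, lay within the NR-treated range. Calls of markers without that pair are not given. Skeletal muscle markers were called higher in 7 of 8, with sums of 18.0, 33.8, 924, 88.6 and 674 CPM with NR and 16.6 to 87.0 CPM without. The mouse with the most Col1a1 and Col22a1, NR-treated mouse 1, had 18.0 CPM of muscle markers. NR-treated mouse 5, next in both genes, had 674 CPM. Non-treated mouse 1, the highest of its group in both genes, had 87.0 CPM, also the highest of its group. Adipocyte markers were called higher in 5 of 7, with sums of 93.2 to 179 CPM with NR and 56.4 to 86.8 CPM without, so these groups did not overlap. Of the other lists, 1 of 7 fibrocyte markers and 1 of 7 Schwann cell markers were called lower, 1 of 7 endothelial markers was called higher, smooth muscle markers had 1 in each direction, and 0 of 7 hair cell and 0 of 10 bone marrow markers were called at an unadjusted p in edgeR. The part of bone, cartilage, muscle and fat in the collagen results was not tested.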

How the data were processed

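Cochlear RNA of 5 NR-treated and 5 non-treated mtKeima mice was sequenced, 1 library per mouse. The authors deposited raw counts per gene: per the labels, reads were cleaned with fastp, aligned to mm10 with STAR 2.6.1d and counted with featureCounts 1.5.0, unstranded in its default mode. No value was normalized before deposit. Because counting was unstranded, reads on exons that overlap between genes of opposite strands could not be told apart by strand.

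Counts were filtered with filterByExpr, scaled by TMM and tested with the quasi-likelihood test of edgeR 4.0.16 (R 4.3.3), with group as the only term and adjustment over all 18329 tested genes. Standard errors are from the F statistic. Named genes are called members, members whose groups are apart, the 3 members of each class with the highest CPM per kb, called pathway genes (at most 4 a list) and the most abundant of each list. Serpinh1, Lox, Mmp3, Bglap and the other uncalled members were added after their values were seen. Members and lists were chosen with earlier results of these data known. Alternatives were DESeq2 1.42.0, its size factors, filters, a robust dispersion, a replicate block and left-out mice. Labels do not name batches. The test was checked on simulated data. Gene positions were the same in GENCODE M21.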

Additional observations from a re-analysis of the deposited data

Results flagged for a closer look

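Dixon's ratio was computed for the levels of the 44 members and for 15 chain ratios in each group of 5 mice, 118 groups in all, and 6 exceeded the 95% critical value of 0.71, where chance gives about 1 in 20. In the NR-treated group, mouse 2 stood apart with 939.9 CPM of Col11a2 and 30.4 CPM of Col4a5, both the highest of their group. In the non-treated group, mouse 2 had the highest level of Col7a1 (23.1 CPM) and of Col26a1 (6.15 CPM), mouse 4 had the highest level of Col8a1 (92.7 CPM) and mouse 5 had the lowest level of Col13a1 (6.59 CPM). Of these genes only Col8a1 was called, and with non-treated mouse 4 left out it was still called.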

How the results depend on the processing

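Over 61 results and 1037 alternatives, 869 values were rated the same as in the main fit. For single genes this meant the same direction and side of the threshold (660 of 799). Counts had to stay within a set fold of the main count, and class medians had to move by less than the SD between mice. A class median could thus turn sign and be rated the same: that of types II, IX and XI ran from -0.19 to 0.026 over the left-out mice. Leaving out each mouse gave 4 to 14 collagen genes called higher, against 8 in all mice. There were 4 without NR-treated mouse 1 or non-treated mouse 5, 5 without NR-treated mouse 5 and 14 without NR-treated mouse 2. Pathway genes called higher were 3 to 22, with 3 without NR-treated mouse 1, 4 without non-treated mouse 4 and 22 without NR-treated mouse 2. Of all genes, 4.83% were called higher in all mice. This share was 4.18% without NR-treated mouse 1, 7.61% without NR-treated mouse 2 and 4.22% without NR-treated mouse 5. It was 4.29% without non-treated mouse 4 and 4.91% without non-treated mouse 5. Pathway genes called lower were 0 to 4. There were 4 without non-treated mouse 5, where 4.73% of all genes were called lower. The type IV median was -0.38 to -0.17. Without non-treated mice 3 and 4 together, 3 collagen genes were called higher and 1 lower, 0 pathway genes were called lower, the type IV median was -0.0442 and that of types II, IX and XI 0.11, and log2 fold changes turned sign for Col11a2 (0.10), Col25a1 (0.082), Col27a1 (0.10), Col4a5 (0.052), Col9a2 (0.11), Itgb1 (-0.0108), Lamb2 (0.10) and Timp2 (0.11). Pathway genes called lower were 0 with DESeq2 size factors or the 1 CPM filter and 2 with the DESeq2 Wald test, which called 1 collagen gene at an adjusted p. Values near 0 changed sign for Col14a1 (0.00840 with no filter and 0.0057 with the 1 CPM filter) and P4hb (0.0024 with no filter), and, over the left-out mice, ran from -0.19 to 0.026 for Col11a2, -0.035 to 0.076 for Col14a1, -0.0532 to 0.085 for Col15a1, -0.076 to 0.11 for Col26a1, -0.17 to 0.016 for Col27a1, -0.10 to 0.0086 for Col5a3, -0.14 to 0.27 for Col7a1, -0.18 to 0.026 for Col9a2, -0.022 to 0.059 for Itgb1, -0.11 to 0.020 for Lamb2, -0.059 to 0.083 for P4hb and -0.072 to 0.060 for Timp2. The cause was not tested. Mice of the 2 groups share only replicate numbers (correlations of their deviations -0.22 to 0.17, and 1 of 5 NR-treated mice closest to its own number). With the replicate block, 2 pathway genes were called lower, Col7a1 had 0.055, Col3a1, Col6a1, Col6a2, P4ha2 and Aspn were no longer called, and all-gene calls were 879 higher and 776 lower.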
